A study of Mus musculus with 6 samples.

Results

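Expression of 35 genes of the endoplasmic reticulum (ER) stress response, also called the unfolded protein response, was examined in liver F4/80-positive cells of *Lpcat3KOMac* and WT mice. The 35 genes were chosen by symbol for their roles in this response, and all of them were found among the 49315 genes of the count tables. They were grouped by role as 8 lumenal chaperones and cochaperones, 7 lectin chaperones and disulfide isomerases, 7 genes of ER-associated degradation (ERAD), 4 sensors and *Xbp1*, and 9 effectors of PERK and ATF4. RNA was sequenced from 3 mice of each genotype after 16 weeks of a high-fat diet (HFD, 60% fat), with 1 library per mouse. *Lpcat3KOMac* mice were *Lpcat3* fl/fl and LysM Cre/+, and WT mice were *Lpcat3* fl/fl and LysM +/+ littermates, so both groups carried the floxed alleles, were fed the HFD and had a C57BL/6N background. The diet began at 8 to 12 weeks of age. The study used males and females, and the labels do not give the sex of these 6 mice. The Cre recombinase lies in the *Lyz2* gene and is active in myeloid cells generally, so the model is not restricted to Kupffer cells, and *Lyz2* itself has one interrupted copy in the deleted mice. LPCAT3 places polyunsaturated fatty acids, arachidonic acid among them, in membrane phospholipids, and the question addressed here was whether its loss in these cells went with a different level of ER stress transcripts.

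When unfolded proteins build up in the ER, they are sensed by the membrane proteins IRE1 (encoded by *Ern1*), ATF6 and PERK (encoded by *Eif2ak3*). IRE1 splices *Xbp1* mRNA, ATF6 is cut to release a transcription factor, and both raise the transcription of chaperones and ERAD genes, while PERK slows translation and favours the production of ATF4, which drives amino acid and stress genes. In macrophages the response has been tied to membrane lipid saturation and to inflammatory signaling. Counts per gene show total transcript only, and neither the splicing of *Xbp1* nor the cleavage, phosphorylation or translation of these proteins was measured here.

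Promoters of the members were searched for the letters through which this response acts, and the sequences of 4 members are shown because they hold the elements of the different branches and belong to genes on which the results turn. *Hspa5* and *Hsp90b1* hold the ER stress response element (ERSE, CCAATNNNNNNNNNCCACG), *Herpud1* holds ERSE-II (ATTGGNCCACG) together with a C/EBP-ATF response element (CARE, TGATGNAAN), and *Chac1* holds CARE alone. Each line gives the 220 bases directly before the RefSeq start site (GRCm38.p6), 5′ to 3′ on the strand of the gene, with the matched elements in capitals. For *Hspa5*, *Hsp90b1* and *Chac1* the gene as counted begins before the RefSeq start site, so part of the printed stretch lies within it.
*Hspa5*, chr2:34771870-34772089, plus strand: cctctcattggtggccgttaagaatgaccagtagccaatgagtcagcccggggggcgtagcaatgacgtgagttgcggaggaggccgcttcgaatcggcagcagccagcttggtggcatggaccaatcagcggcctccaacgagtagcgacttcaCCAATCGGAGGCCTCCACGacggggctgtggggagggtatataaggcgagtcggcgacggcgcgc
*Hsp90b1*, chr10:86705445-86705664, minus strand: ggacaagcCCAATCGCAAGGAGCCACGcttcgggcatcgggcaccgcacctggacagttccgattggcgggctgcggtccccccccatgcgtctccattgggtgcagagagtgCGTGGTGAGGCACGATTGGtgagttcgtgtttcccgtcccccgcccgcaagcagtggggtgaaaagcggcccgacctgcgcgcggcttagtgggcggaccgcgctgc
*Herpud1*, chr8:94386209-94386428, plus strand: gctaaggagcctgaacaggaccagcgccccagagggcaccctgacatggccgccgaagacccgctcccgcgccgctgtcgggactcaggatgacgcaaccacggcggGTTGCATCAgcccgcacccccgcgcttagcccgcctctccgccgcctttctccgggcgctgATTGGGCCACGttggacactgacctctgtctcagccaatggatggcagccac
*Chac1*, chr2:119351022-119351241, plus strand: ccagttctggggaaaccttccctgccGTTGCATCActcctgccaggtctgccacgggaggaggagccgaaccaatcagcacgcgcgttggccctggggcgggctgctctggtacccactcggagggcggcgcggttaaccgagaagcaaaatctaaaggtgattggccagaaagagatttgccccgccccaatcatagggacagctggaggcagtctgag

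The ERSE letters were present in 9 of the 31 members with a RefSeq promoter window of 300 bases (250 before to 50 after the start), searched on both strands, and in 37 of all 27025 genes with such a window (0.137%). *Derl1*, *Manf*, *Atf6* and *Hyou1* had no entry. ERSE-II was found in *Herpud1* and *Dnajb11* and in 12 genes in all (0.0444%). CARE was found in 5 members, *Atf3*, *Chac1*, *Trib3*, *Asns* and *Herpud1*, and in 1215 genes in all (4.50%). The core of the XBP1 element UPRE (TGACGTGG) was in the window of 0 members and of 193 genes (0.714%). No matched stretch overlapped another. These are matches of letters within the window and not measured sites. The ERSE matches in the other 7 members are printed to show the shared outer blocks, in capitals, and the variable spacer, in lower case. *Calr*, *Creld2* and *Derl3* carry the element on the opposite strand.
*Calr*: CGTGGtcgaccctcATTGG
*Canx*: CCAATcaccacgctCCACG
*Pdia6*: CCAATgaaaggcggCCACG
*Creld2*: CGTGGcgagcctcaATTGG
*Dnajc3*: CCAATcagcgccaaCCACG
*Derl3*: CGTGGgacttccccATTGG
*Syvn1*: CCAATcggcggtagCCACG

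By role, ERSE was found in 3 lumenal chaperone genes, 4 lectin chaperone and isomerase genes and 2 ERAD genes, whereas 4 of the 5 CARE matches fell in effectors of PERK and ATF4. The ERSE of *Hspa5* began 65 bases before the start site, and those of the other members between 212 and 44 bases before it. *Hsp90b1* held 2 copies, on opposite strands. The 9 members with ERSE had log2 fold changes between -0.41 and -0.08 (median -0.27), and the 5 with CARE between -1.93 and 0.58 (median 0.38). The median over all 35 members was -0.21. The CARE median is the value of *Asns* alone (0.38 ± 0.43, SE). WT mouse 1 was the highest library for all 9 members with ERSE and for 4 of the 5 with CARE. A difference between these 2 sets was not tested.

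**Figure D1:**
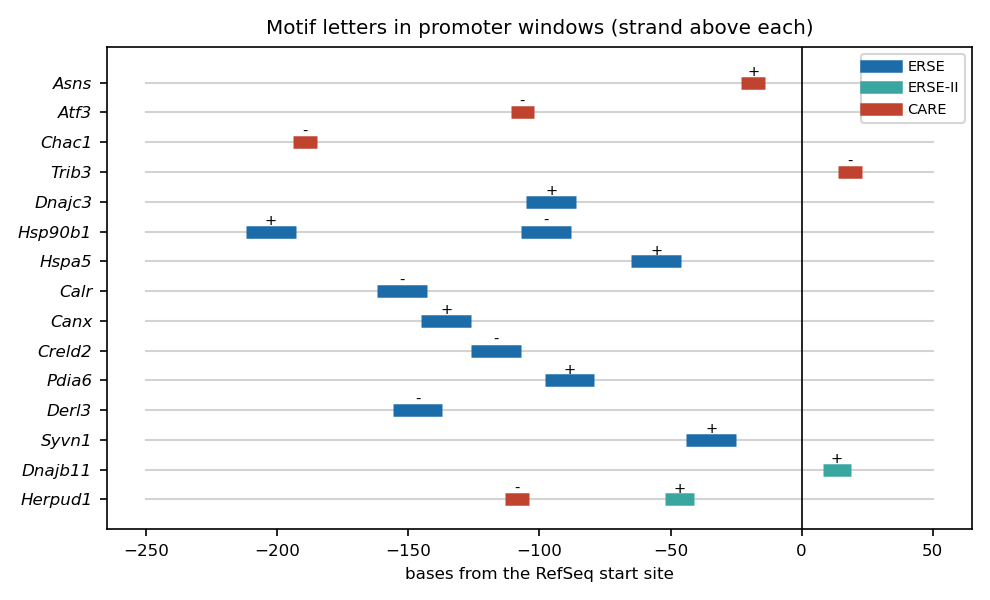
Positions of ERSE, ERSE-II and CARE letters (coloured bars, strand above each) in the promoter windows of the members that hold one. The x axis is the distance in bases from the RefSeq start site at 0, and grey lines span the window of 250 bases before to 50 after it. ERSE lies before the start site in all 9 members that hold it.

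Total counts lay between 44954224 and 71392812 per library. *Lpcat3* had 85.0, 66.2 and 61.2 CPM (read counts scaled to a common library size, normalised by TMM) in WT mice 1 to 3 and 19.5, 33.3 and 19.4 CPM in *Lpcat3KOMac* mice 1 to 3, which separated the groups as labelled. Kupffer cell markers were abundant in every library, with 25355 to 44274 CPM summed over 8 genes, and *Clec4f* and *C1qa* among them were lower in every *Lpcat3KOMac* mouse. All 8 had log2 fold changes below 0 (median -0.25). With single mice left out the median ran from -0.37 without WT mouse 1 to -0.06 without WT mouse 2, where 3 were above 0. One WT library stood apart: 8 hepatocyte markers summed to 20039.9 CPM in WT mouse 1 but 1829.97 and 1769.62 CPM in WT mice 2 and 3, and to 4656, 12723 and 4496 CPM in *Lpcat3KOMac* mice 1 to 3. Plasma and B cell markers, of interest because such cells secrete much protein, summed to 15.1 to 50.3 CPM in WT and 25 to 42.7 CPM in *Lpcat3KOMac* mice. Sinusoidal endothelial markers summed to 939 to 1070 and 1040 to 1320 CPM, neutrophil and monocyte markers to 113 to 232 and 140 to 202 CPM, stellate cell markers to 42.9 to 137 and 92.4 to 167 CPM, and T and NK cell markers to 1.34 to 2.49 and 1.57 to 2.89 CPM, WT first. Log2 fold changes were above 0 for 6 of 7 endothelial markers (median 0.53) and for 6 of 7 neutrophil and monocyte markers (median 0.80), of which *Kdr* and *Fcgr2b*, and *S100a8* and *Chil3*, had an unadjusted p-value under 0.05. No gene of these lists was at 0 in all libraries, and the part of these cell types in the levels of the ER stress genes was not tested, apart from the fits with and without the hepatocyte transcripts given with the results. In bulk RNA, fewer cells of a type and less RNA per cell cannot be told apart.

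The ER stress genes of these cells spanned a wide range of levels. Per kilobase of gene length (RPKM, mean of 6 libraries), the most abundant were *Calr* at 376, *Hsp90b1* at 300.2, *Pdia3* at 293, *Hspa5* at 262 and *P4hb* at 244. All 5 encode abundant residents of the ER lumen that bind calcium, chaperone proteins or form disulfide bonds. The ERAD genes were lower, from 0.793 RPKM for *Derl3* to 61.2 RPKM for *Derl1*. Among the sensors and *Xbp1*, *Xbp1* mRNA stood at 53.6 RPKM, and *Eif2ak3* was the lowest at 6.75 RPKM. The effectors of PERK and ATF4 ran from 56.6 RPKM for *Atf4* to 0.274 RPKM for *Asns*, and *Trib3* and *Chac1* were also under 1 RPKM on average. The median over the 35 genes was 31.6 RPKM.

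**Figure D2:**
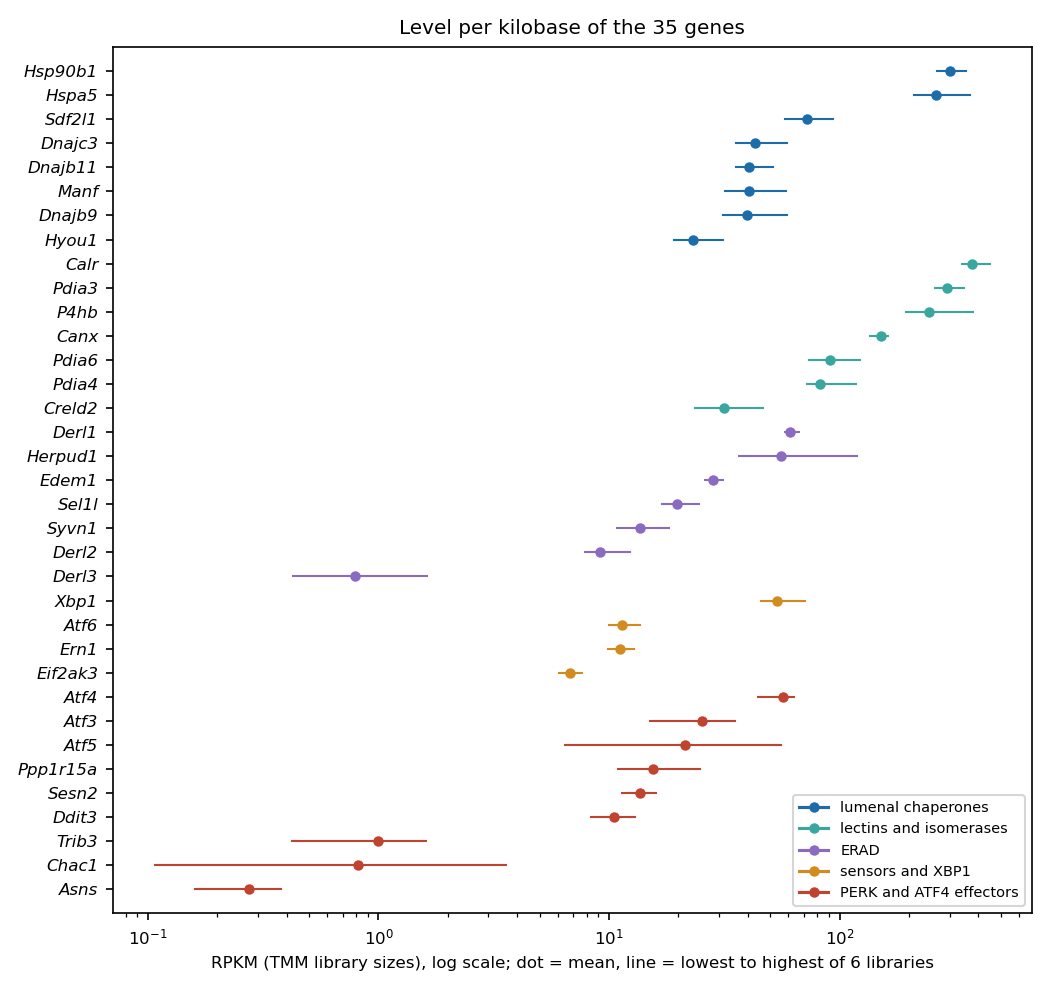
Level per kilobase of each of the 35 genes in RPKM (log scale), coloured by role; dots are means and lines run from the lowest to the highest of the 6 libraries. *Calr*, at 376 RPKM, is the highest and *Asns*, at 0.274 RPKM, the lowest.

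No ER stress gene passed the test between genotypes. The edgeR quasi-likelihood test called 0 of the 35 members at an adjusted p-value under 0.05, with an adjusted p-value of 1 for each (percent called among the 16134 genes tested: 0), and DESeq2 called 0 members (15 of 13510 genes with an adjusted p-value, 0.111%). DESeq2 gave no p-value for *Atf5* and *Chac1*, so it could not call them. *Lpcat3* and *Lyz2*, the 2 genes altered in the model, were also not called by edgeR (log2 fold changes -1.56 and -1.42), whereas DESeq2 called both. A count of 0 in edgeR is therefore not evidence that the members did not differ. At an unadjusted p-value under 0.05 there were 3 members, *Hsp90b1* and *Pdia3* below and *Atf3* above WT, against 426 of all genes tested (2.64%). Log2 fold changes were below 0 for 31 members and above 0 for 4, with a median of -0.21, beside a median of -0.04 over all genes tested (interquartile range -0.14 to 0.08). Scaling by total counts moved the median of all genes to 0.06 and that of the members to -0.10, with 26 members below 0. For 32 members the 95% interval of the log2 fold change included 0, and for 27 it included neither a 2-fold rise nor a 2-fold fall.

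Groups did not overlap for 6 members, all lower in *Lpcat3KOMac* mice: *Hsp90b1*, *Dnajb11*, *Calr*, *Pdia3*, *Creld2* and *Ern1*. Over all genes tested, 839 (5.20%) were lower without overlap and 369 (2.29%) were higher, of which the members gave 0. With 3 mice against 3 the exact two-sided permutation test cannot give a p-value under 0.1, which is what each of these 6 genes reached. Non-overlap depended on the scaling: 5 members were separated with the size factors of DESeq2 (706 genes lower, 409 higher), and 3, *Hsp90b1*, *Dnajb11* and *Pdia3*, with total counts alone (232 lower, 795 higher).

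For the lumenal chaperones all 8 log2 fold changes were below 0 (-0.32 to -0.15, median -0.27), with 1 gene at an unadjusted p-value under 0.05 and 0 at an adjusted one. The median was -0.08 without WT mouse 1, and 2 of the 8 were then above 0. The 8 Kupffer cell markers had a median of -0.25 over the same mice, -0.37 without WT mouse 1 and -0.06 without WT mouse 2. Without WT mouse 2 the median of the chaperones was -0.32. The part of these markers in the levels of the chaperones was not tested. *Hsp90b1* (ENSMUSG00000020048, chr10:86690209-86705509, minus strand, GRCm38), which encodes the ER paralog of HSP90 known as GRP94, had 1421, 1252 and 1297 CPM in WT mice 1 to 3 and 1094, 1069 and 1130 CPM in *Lpcat3KOMac* mice 1 to 3. Every *Lpcat3KOMac* mouse was below every WT mouse. The means were 1324 ± 87.4 and 1097 ± 30.8 CPM (SD, n = 3 each). The log2 fold change was -0.27 ± 0.087 (SE; 95% interval -0.48 to -0.06), with an unadjusted edgeR p-value of 0.0215, an adjusted p-value of 1 and an exact permutation p-value of 0.1. Without WT mouse 1 the log2 fold change was -0.22 (edgeR adjusted p = 0.437).

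*Hspa5* (ENSMUSG00000026864, chr2:34771970-34777547, plus strand) encodes BiP, the HSP70 of the ER that also holds the 3 sensors inactive. It had 1554, 1131 and 975 CPM in WT mice and 1124, 888 and 982 CPM in *Lpcat3KOMac* mice. WT mouse 1 was the highest, WT mouse 3 lay between *Lpcat3KOMac* mice 2 and 3, and the groups overlapped. The log2 fold change was -0.29 ± 0.20 (SE, exact permutation p = 0.4), and -0.08 without WT mouse 1.

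*Dnajb11*, a cochaperone of BiP, had 166, 135 and 129 CPM in WT and 121, 121 and 115 CPM in *Lpcat3KOMac* mice, a log2 fold change of -0.27 ± 0.11 (SE, exact permutation p = 0.1). The groups were separate, by a margin that was small beside the spread of the WT mice, and the log2 fold change was -0.15 without WT mouse 1. *Manf*, a secreted cofactor of BiP and the gene of this group with the largest difference, had 207, 139 and 128 CPM in WT and 137, 112 and 129 CPM in *Lpcat3KOMac* mice (log2 fold change -0.32 ± 0.20, SE, exact permutation p = 0.3). Here WT mouse 3 was below *Lpcat3KOMac* mouse 3, and the log2 fold change was -0.08 without WT mouse 1. The other members were *Hyou1*, a nucleotide exchange factor of BiP, at 139 to 225 CPM over the 6 libraries, *Dnajc3*, which encodes the cochaperone and PERK inhibitor p58IPK, at 184 to 308 CPM, *Sdf2l1*, of the BiP chaperone cycle, at 64.2 to 103 CPM and *Dnajb9*, which encodes the BiP cochaperone ERdj4, at 58.3 to 110.5 CPM, each overlapping between genotypes and each highest in WT mouse 1.

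Lectin chaperones and disulfide isomerases gave the same sign, with 7 of 7 log2 fold changes below 0 (-0.40 to -0.08, median -0.27) and 3 members separate between groups. The median was -0.13 without WT mouse 1, with 1 gene above 0, and with total counts alone 6 of 7 were below 0 (median -0.16). *Pdia3* (ENSMUSG00000027248, chr2:121413775-121438687, plus strand), the isomerase that works with calnexin and calreticulin on glycoproteins, had 1087, 923 and 1013 CPM in WT and 853, 826 and 812 CPM in *Lpcat3KOMac* mice. The lowest WT mouse was above the highest *Lpcat3KOMac* mouse. The means were 1008 ± 82.2 and 830.4 ± 20.4 CPM (SD, n = 3 each), and the log2 fold change was -0.28 ± 0.092 (SE; 95% interval -0.51 to -0.05), with an unadjusted edgeR p-value of 0.0238, an adjusted p-value of 1 and an exact permutation p-value of 0.1. It was -0.22 without WT mouse 1 (edgeR adjusted p = 0.442).

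*Calr*, the calcium-binding lectin calreticulin, had 1297, 1070 and 1118 CPM in WT and 1008, 980.3 and 1016 CPM in *Lpcat3KOMac* mice (log2 fold change -0.21 ± 0.10, SE, exact permutation p = 0.1). *Creld2*, a stress-induced ER protein with isomerase-like activity, had 63.5, 40.5 and 43.1 CPM in WT and 40.0, 39.0 and 32.3 CPM in *Lpcat3KOMac* mice (-0.40 ± 0.20, SE, exact permutation p = 0.1). Both were separate, but WT mouse 2 and *Lpcat3KOMac* mouse 1 were nearly level for *Creld2*. *Creld2* overlapped between genotypes with the size factors of DESeq2, and both genes did with total counts alone. The log2 fold changes were -0.13 for *Calr* and -0.17 for *Creld2* without WT mouse 1. *Canx*, the membrane-bound partner of calreticulin, varied least, at 707 to 759 CPM in WT and 638 to 736 CPM in *Lpcat3KOMac* mice. The isomerases *P4hb* (555 to 1084 CPM), *Pdia4* (174 to 284 CPM) and *Pdia6* (276 to 461 CPM) overlapped between genotypes and were each highest in WT mouse 1.

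ERAD genes differed less, with 7 of 7 log2 fold changes below 0 (-0.50 to -0.04, median -0.12), 0 members at an unadjusted p-value under 0.05 and 0 separate between groups. *Herpud1*, which encodes a scaffold of the HRD1 ubiquitin ligase complex and holds both ERSE-II and CARE letters in its promoter, had 279, 93.6 and 85.7 CPM in WT and 126, 109 and 89.5 CPM in *Lpcat3KOMac* mice. WT mouse 1 stood at 3.11 times the mean of WT mice 2 and 3, whereas the other 5 mice lay between 85.7 and 126 CPM. The log2 fold change was -0.50 ± 0.50 (SE, exact permutation p = 0.9), and it changed sign, to 0.27 ± 0.16, without WT mouse 1. *Derl1*, a membrane component of the retrotranslocation machinery, was the steadiest of the 35 genes, with 211, 207 and 184 CPM in WT and 186, 182 and 185 CPM in *Lpcat3KOMac* mice (-0.12 ± 0.083, SE, exact permutation p = 0.3). The ligase gene *Syvn1* (51.6 to 87.1 CPM), its partner *Sel1l* (145 to 211 CPM), the lectin gene *Edem1* (168 to 201 CPM) and the derlin gene *Derl2* (63.6 to 99.0 CPM) overlapped, as did its paralog *Derl3*, which ran from 0.569 to 2.17 CPM. *Derl2* shares 231 bases with *Mis12* on the other strand, which reached 2701 counts against 6431, so its level is uncertain. All 7 ERAD genes were highest in WT mouse 1, and without it 6 of them had log2 fold changes above 0 (median 0.11).

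Transcripts of the sensors and *Xbp1* were nearly level between genotypes (log2 fold changes -0.19 to 0.05, median -0.07). *Ern1* (ENSMUSG00000020715, chr11:106394650-106487852, minus strand), encoding the kinase and RNase IRE1, had 90.8, 105 and 96.1 CPM in WT and 87.5, 86.8 and 81.1 CPM in *Lpcat3KOMac* mice. The groups were separate, and this was the only separated member in which WT mouse 1 was not the highest WT library. Its log2 fold change was -0.19 ± 0.085 (SE, exact permutation p = 0.1), and -0.24 ± 0.086 without WT mouse 1 (edgeR adjusted p = 0.366). With total counts alone its groups overlapped.

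*Xbp1*, the transcription factor mRNA that IRE1 splices, had 230.3, 152 and 149 CPM in WT and 179, 184 and 152 CPM in *Lpcat3KOMac* mice (log2 fold change -0.05 ± 0.20, SE). *Atf6* had 105, 112 and 92.2 CPM in WT and 103, 125 and 93.4 CPM in *Lpcat3KOMac* mice (0.05 ± 0.14, SE). *Eif2ak3* had 46.1, 43.6 and 36.6 CPM in WT and 41.9, 37.8 and 38.1 CPM in *Lpcat3KOMac* mice (-0.10 ± 0.11, SE). All 3 overlapped between genotypes, and for all 4 genes the 95% interval included neither a 2-fold rise nor a 2-fold fall. The sign for *Xbp1* turned with total counts alone (0.06) and without WT mouse 1 (0.19).

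Effectors of PERK and ATF4 were the most variable, with 6 of 9 log2 fold changes below 0 and a range of -1.93 to 0.58 (median -0.17). *Atf4*, the transcription factor whose translation rises when PERK is active, had 104, 98.5 and 109 CPM in WT and 105, 76.5 and 93.2 CPM in *Lpcat3KOMac* mice (-0.18 ± 0.13, SE, exact permutation p = 0.3). *Ddit3*, which encodes the proapoptotic factor CHOP, had 17.9, 15.3 and 22.2 CPM in WT and 21.2, 14.4 and 17.0 CPM in *Lpcat3KOMac* mice (-0.07 ± 0.20, SE, and 0.02 with total counts alone). The level of *Ddit3* is uncertain because 68 of its bases overlap *Mars* on the other strand, which reached 3609 counts against 1233 for *Ddit3*. Neither gene separated the groups.

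*Atf3* (ENSMUSG00000026628, chr1:191170296-191218039, minus strand), a stress-induced transcription factor that also responds to inflammatory signals, was the only member above WT at an unadjusted p-value under 0.05. It had 32.3, 45.3 and 53.8 CPM in WT and 75.6, 52.4 and 68.8 CPM in *Lpcat3KOMac* mice. The groups overlapped, since WT mouse 3 was above *Lpcat3KOMac* mouse 2. The means were 43.8 ± 10.8 and 65.6 ± 11.9 CPM (SD, n = 3 each), and the log2 fold change was 0.58 ± 0.23 (SE; 95% interval 0.02 to 1.15), with an unadjusted edgeR p-value of 0.0448, an adjusted p-value of 1 and an exact permutation p-value of 0.2. Without WT mouse 1, the lowest library for this gene, the log2 fold change was 0.41 (edgeR adjusted p = 0.447). Immediate early and heat shock genes of cell dissociation, among which *Atf3* is often counted in isolated cells, summed to 553, 939 and 587 CPM in WT and 788, 509 and 566 CPM in *Lpcat3KOMac* mice. WT mouse 2 was highest for that list and for *Ppp1r15a*, the phosphatase subunit that restarts translation, which had 72.8 CPM there and 32.1 to 47.3 CPM in the other 5 mice. The part of that list in either gene was not tested.

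*Chac1*, a glutathione-degrading enzyme induced through ATF4, had the largest log2 fold change of the 35 genes and the least certain. It had 5.83, 0.339 and 0.175 CPM in WT and 0.964, 0.463 and 0.234 CPM in *Lpcat3KOMac* mice, from 379, 17 and 8 counts and 56, 24 and 11 counts. One mouse made the difference: WT mouse 1 was at 22.7 times the mean of WT mice 2 and 3. The log2 fold change was -1.93 ± 1.40 (SE, exact permutation p = 0.9), and 1.1 ± 0.71 without that mouse.

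*Atf5*, *Trib3* and *Asns* were looked at for their values without WT mouse 1. *Atf5*, a transcription factor close to ATF4, had 111.5, 12.9 and 14.8 CPM in WT and 35.3, 51.4 and 30.3 CPM in *Lpcat3KOMac* mice, so that WT mouse 1 was the highest of the 6 and WT mice 2 and 3 the lowest. Its level is uncertain, since 82 of its bases overlap *Nup62* on the other strand, which reached 2031 counts, against 645 and 678 counts for *Atf5* in WT mice 2 and 3. *Trib3*, a pseudokinase induced by CHOP and ATF4, had 3.43, 0.898 and 0.984 CPM in WT and 2.77, 2.55 and 2.10 CPM in *Lpcat3KOMac* mice, and *Asns*, asparagine synthetase, had 1.03, 0.479 and 0.437 CPM in WT and 0.999, 0.636 and 0.914 CPM in *Lpcat3KOMac* mice. With all 6 mice the log2 fold changes were -0.25 ± 0.90, 0.48 ± 0.57 and 0.38 ± 0.43 (SE). Without WT mouse 1 they were 1.5 ± 0.26, 1.39 ± 0.27 and 0.89 ± 0.34 (SE), with edgeR adjusted p-values of 0.293, 0.293 and 0.397. The 5 remaining libraries differed in hepatocyte markers too, which summed to 1829.97 and 1769.62 CPM in WT mice 2 and 3 and to at least 4496 CPM in each *Lpcat3KOMac* mouse. With the hepatocyte markers as a covariate over all 6 mice, the log2 fold changes were -0.03 ± 0.17, 0.49 ± 0.26 and 0.35 ± 0.33 (SE). *Sesn2*, a stress-induced regulator of mTORC1, ran from 39.6 to 55.4 CPM and overlapped.

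**Figure D3:**
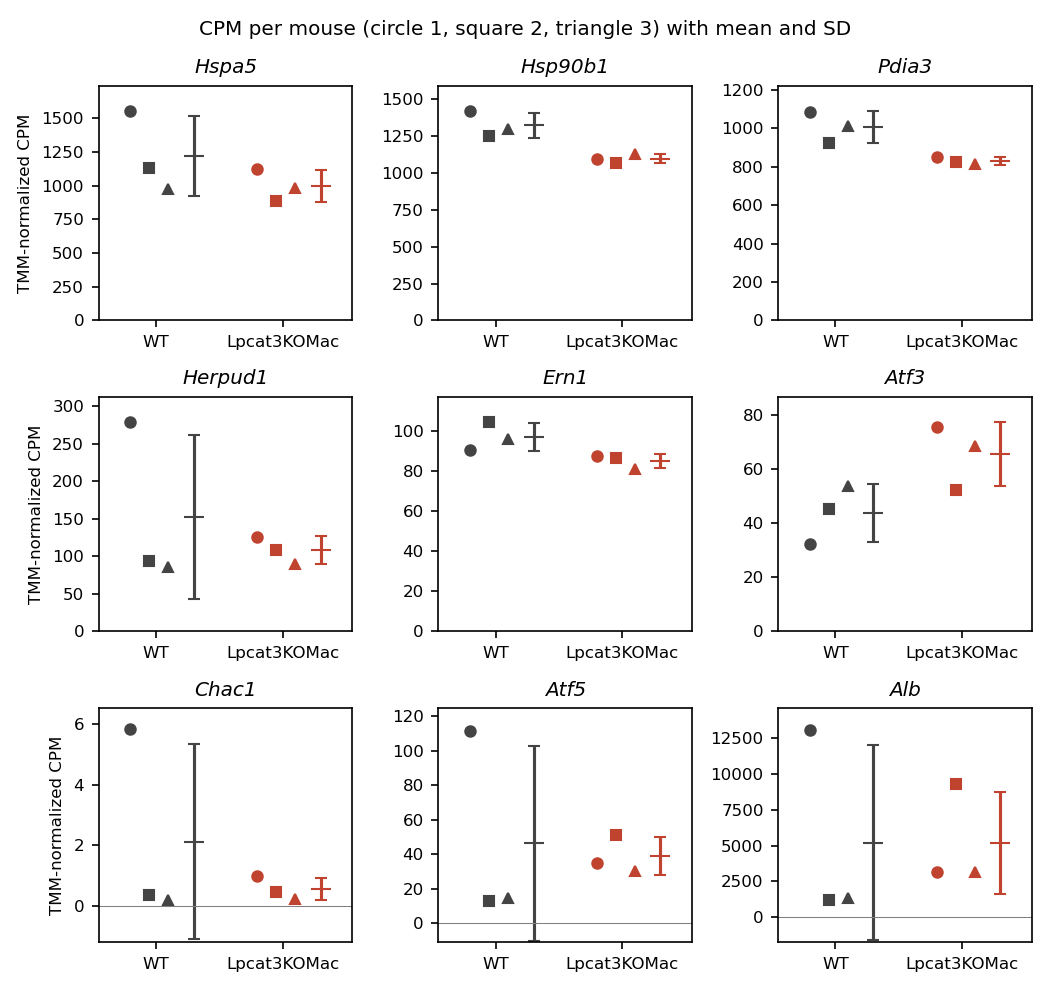
TMM-normalised CPM of 8 members and of the hepatocyte gene *Alb* in each mouse (circle, square and triangle for mice 1, 2 and 3 of each genotype), with the mean and SD beside the points. The 3 *Lpcat3KOMac* mice lie below all WT mice for *Hsp90b1*, *Pdia3* and *Ern1*, whereas WT mouse 1 lies far above the other 5 for *Herpud1* and *Chac1*.

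WT mouse 1 carried much of the spread in the response. It was the highest library for 28 of the 35 genes, for 8 of 8 lumenal chaperones, 7 of 7 lectin chaperones and isomerases, 7 of 7 ERAD genes, 2 of 4 sensors and *Xbp1*, and 4 of 9 effectors of PERK and ATF4. Its level was over 1.5 times the mean of WT mice 2 and 3 in 15 genes, and the median of that ratio was 1.37. The range between mice of one genotype, the highest over the lowest, had a median of 1.56 in WT and 1.23 in *Lpcat3KOMac* mice. The hepatocyte markers were 10.3 to 15 times as high in WT mouse 1 as in the mean of WT mice 2 and 3, and 1.65 to 2.96 times as high in *Lpcat3KOMac* mouse 2 as in the mean of mice 1 and 3. *Lpcat3KOMac* mouse 2 was the lowest library for 12 of the 35 genes, and WT mouse 3 was the lowest for 11. In *Lpcat3KOMac* mouse 2, *Atf5* was the only member over 1.5 times the mean of *Lpcat3KOMac* mice 1 and 3 (1.57). WT mouse 1 and *Lpcat3KOMac* mouse 2 were the 2 highest libraries for 3 members.

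**Figure D4:**
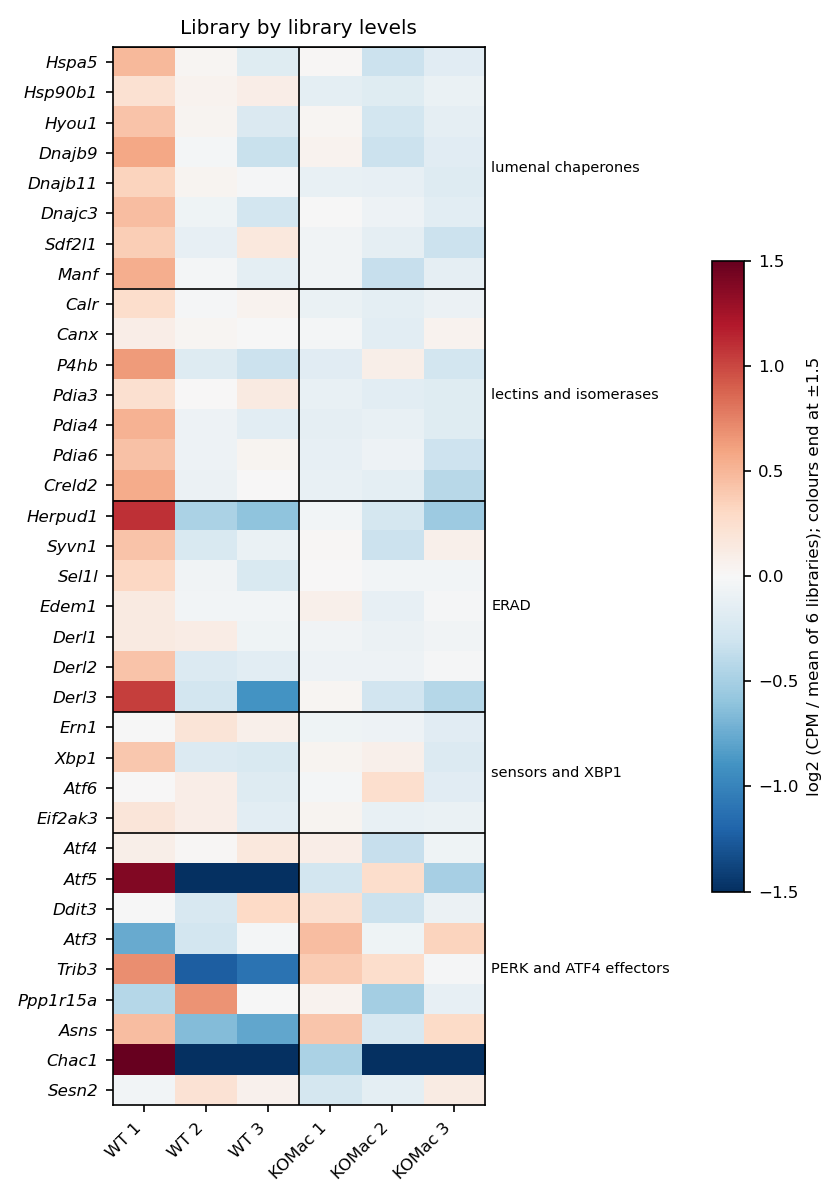
Log2 of CPM over the mean of the 6 libraries for each of the 35 genes (rows, grouped by role) in each mouse (columns); red is above and blue below that mean, and colours end at ±1.5. WT mouse 1 is the highest library in 28 of the 35 rows.

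Leaving out WT mouse 1 brought the median log2 fold change of the members from -0.21 to -0.03, with 16 above and 19 below 0. Medians were then -0.08 for lumenal chaperones, -0.13 for lectin chaperones and isomerases, 0.11 for ERAD genes, 0.02 for sensors and *Xbp1*, and 0.41 for effectors of PERK and ATF4. At an unadjusted p-value under 0.05 there were 4 members, *Ern1* below and *Atf5*, *Trib3* and *Asns* above WT, where 12.3% of all genes passed (2028 of 16487). Without WT mouse 1 and *Lpcat3KOMac* mouse 2, both libraries with the most hepatocyte transcripts, the median was 0.00 and 5 members passed, *Ern1* below and *Atf3*, *Atf5*, *Trib3* and *Asns* above WT, where 11.0% of all genes did (1767 of 16126). With the hepatocyte markers as a covariate the median was -0.17, and 12 members passed, 11 below and 1 (*Atf3*) above WT, where 8.95% of all genes did (1444). Of these 11, 4 were lumenal chaperones, 6 were lectin chaperones or isomerases and 1 was *Herpud1*. Adjusted p-values were at least 0.0713 for every member in these 3 fits. The 3 members with an unadjusted p-value under 0.05 over all 6 mice kept their sign with any single mouse left out. Log2 fold changes then ran from -0.31 to -0.22 for *Hsp90b1*, -0.34 to -0.22 for *Pdia3* and 0.41 to 0.76 for *Atf3*. *Hsp90b1* and *Pdia3* remained under 0.05 only without WT mouse 2, and *Atf3* only without WT mouse 3 or *Lpcat3KOMac* mouse 2. Without *Lpcat3KOMac* mouse 1 or 3, 0 members passed, where 179 of 16457 and 382 of 16521 genes did. These fits have fewer mice, so a loss of the threshold does not show that a gene rests on the mouse left out.

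**Figure D5:**
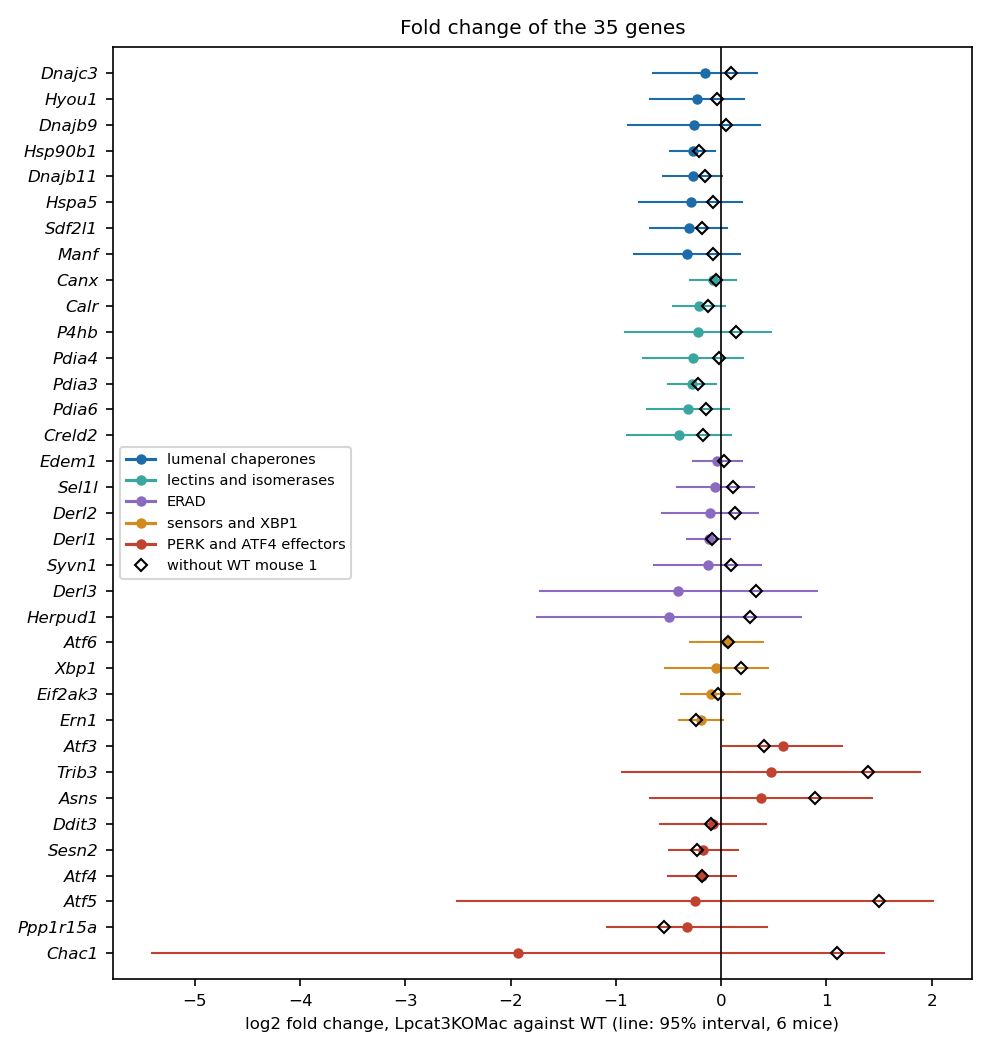
Log2 fold change of *Lpcat3KOMac* against WT for each of the 35 genes (dots, coloured by role) with its 95% interval (lines), and the same value without WT mouse 1 (open diamonds). With all 6 mice 31 dots lie below 0, and without WT mouse 1 the diamonds lie on both sides, 19 below and 16 above.

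A list of 108 further genes of the pathway, of which 107 could be tested, gave 0 genes at an adjusted p-value under 0.05. At an unadjusted p-value under 0.05 it gave 8 below and 1 above WT, where 2.64% of all genes tested passed in either direction. Log2 fold changes were below 0 for 90 and above 0 for 17. Under total counts alone the split was 55 below and 52 above. Genes of translocation and glycosylation, which carry new proteins into the ER, were below 0 in 24 of 24 cases, though by little (-0.29 to -0.05, median -0.16). Of these, 13 were lower without overlap, where 839 of all 16134 genes tested (5.20%) were. The number was 10 with the size factors of DESeq2 (706 of all genes) and 6 with total counts alone (232 of all genes). Under total counts alone 17 of 24 were below 0. *Ssr4*, a subunit of the translocon-associated complex, had 95, 93.5 and 91.5 CPM in WT and 77.7, 79.5 and 76.6 CPM in *Lpcat3KOMac* mice, with a log2 fold change of -0.26 ± 0.065 (SE, unadjusted edgeR p = 0.00763, exact permutation p = 0.1), and every WT mouse was higher. The other 4 below an unadjusted p-value of 0.05 were *Spcs2* of the signal peptidase (-0.21), the translocon genes *Sec61b* (-0.29) and *Sec61g* (-0.26), and *Ostc* of the oligosaccharyltransferase (-0.22). Without WT mouse 1 the median of this list was -0.09, with 18 of 24 below 0 and 3 at an unadjusted p-value under 0.05. In that fit 12.3% of all genes tested passed.

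Other folding genes had a median of -0.15 (19 of 22 below 0), with *Fkbp2*, a prolyl isomerase of the ER (-0.33, unadjusted edgeR p = 0.0198, exact permutation p = 0.1), and *Cnpy3*, a cochaperone of GRP94 for Toll-like receptors (-0.28, unadjusted edgeR p = 0.024, exact permutation p = 0.1), below an unadjusted p-value of 0.05. Further ERAD genes (median -0.10, 17 of 18 below 0) and further sensor and signaling genes (median -0.07, 13 of 19 below 0) had 0 such genes. With total counts alone 9 of 18 and 5 of 19 of these were below 0 (medians 0.00 and 0.03), as were 13 of 22 other folding genes and 11 of 24 of the ATF4 target list that follows. Among further ATF4 target and integrated stress response genes (median -0.09, 17 of 24 below 0), *Cebpg*, a dimer partner of ATF4, was lower, with 198, 180.2 and 189 CPM in WT and 148, 141 and 145 CPM in *Lpcat3KOMac* mice (-0.38 ± 0.073, SE, unadjusted edgeR p = 0.00213, exact permutation p = 0.1). *Slc7a5*, a transporter of large neutral amino acids, was higher, with 6.26, 5.11 and 7.13 CPM in WT and 10.3, 9.76 and 7.80 CPM in *Lpcat3KOMac* mice (0.59 ± 0.19, SE, unadjusted edgeR p = 0.023, exact permutation p = 0.1). Both were separate between groups and kept their sign without WT mouse 1, and neither passed the adjusted threshold in edgeR. *Stc2* was too low to be tested.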

How the data were processed

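RNA from liver F4/80-positive cells was sequenced for 3 WT and 3 *Lpcat3KOMac* mice. The authors deposited raw read counts per Ensembl gene, 1 table per mouse, with no normalization. The submitters' processing notes name Trimmomatic 0.36, STAR 2.5.2b, featureCounts of Subread 1.5.2 and GRCm38. The strand setting and the annotation release are not given in the sources used here, so genes that overlap on opposite strands are uncertain. Gene symbols were taken from GENCODE M21 (48970 of 49315 identifiers matched), and 29 of the 35 members had the same start and end there as in the tables.

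Counts were compared with the quasi-likelihood test of edgeR 4.0.16 in R 4.3.3 (TMM, expression filter with minimum count 10, robust dispersion, genotype as the only term), with Benjamini-Hochberg adjustment over 16134 genes and a threshold of 0.05. The standard error (SE) was taken as the log2 fold change, without its sign, over the square root of the F statistic. Differences of single genes were also compared by an exact two-sided permutation test. CPM used TMM library sizes, and RPKM divided CPM by the length column of the tables. Alternatives were DESeq2 1.42.0, edgeR with its size factors, scaling by total counts alone, no filter, a replicate block, a covariate (mean log2 CPM over 8 hepatocyte markers) and leaving out each mouse; leaving out both libraries with the most hepatocyte transcripts was added after seeing the data. The fits were also run on simulated data with less spread between libraries than in these data and without an outlying library. That check therefore does not show which changes the fits can recover here. The edgeR p-values set the genotype difference against the spread between these mice, and depth leaves counting error small except for the lowest genes.

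Fold changes were given gene by gene for members with an unadjusted p-value under 0.05 or separate groups, with the highest RPKM or the largest log2 fold change of their group, and for *Ern1*, *Xbp1*, *Atf6*, *Eif2ak3*, *Atf4*, *Ddit3*, *Atf3* and *Hspa5*; *Atf5*, *Trib3* and *Asns* were added after their values were seen. Of the further pathway genes, up to 5 per list with the smallest unadjusted p-value under 0.05 were named. The members and lists were chosen with earlier results of these data known. Promoter sequences are from RefSeq (GRCm38.p6).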

Additional observations from a re-analysis of the deposited data

How the results depend on the processing

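The count of 0 members at an adjusted p-value under 0.05 was the same in all 13 alternatives, though DESeq2 gave no p-value for *Atf5* and *Chac1*. The number with an unadjusted p-value under 0.05 was 3 in edgeR over all mice. It was 1 with total counts alone (318 of all 16134 genes tested) and 12 with the hepatocyte covariate (1444 of 16134). It was 5 without both libraries with the most hepatocyte transcripts (1767 of 16126). When single mice were left out it was 0 to 4. Over all genes, those fits gave from 179 (of 16457) to 2028 (of 16487). Members with separate groups fell from 6 to 3 with total counts alone. The labels do not say whether replicate numbers pair the mice. Deviations from the group means had correlations of -0.36, -0.67 and 0.39 between mice of the same number, which cannot settle it with 3 mice per group. With the replicate block 0 members had an unadjusted p-value under 0.05, where 138 of all 16134 genes tested did.

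Of 20 members with printed fold changes, 12 kept their sign in every alternative. Without both libraries the log2 fold change was 0.00 for *Hspa5*, 0.00 for *Manf*, 0.27 for *Herpud1*, 0.14 for *Xbp1*, -0.06 for *Atf6*, 1.25 for *Atf5*, 0.03 for *Ddit3* and 1.23 for *Chac1*. With total counts alone it was 0.06 for *Xbp1* and 0.02 for *Ddit3*, and with the replicate block 0.53 for *Atf5*. With each mouse left out it ran from -0.78 to 0.27 for *Herpud1*, -0.16 to 0.19 for *Xbp1*, -0.06 to 0.17 for *Atf6*, -0.70 to 1.5 for *Atf5*, -0.20 to 0.08 for *Ddit3* and -2.58 to 1.1 for *Chac1*. The cause of these reversals was not tested. Depth limits *Chac1*, *Asns*, *Trib3* and *Derl3* most, with as few as 8 counts in a library for *Chac1*.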

Other observations

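*Ddit4*, an inhibitor of mTORC1 signaling among the further ATF4 target genes, was chosen after its values were seen. It had 113, 5.51 and 8.42 CPM in WT mice and 8.82, 11.9 and 4.91 CPM in *Lpcat3KOMac* mice, so that WT mouse 1 stood far above the other 5, as it did for *Chac1*. *Hspa1b*, a cytosolic HSP70 gene that belongs to the heat shock response and not to that of the ER, was chosen in the same way. It had 41.9, 4.43 and 4.24 CPM in WT mice and 14.1, 5.17 and 5.14 CPM in *Lpcat3KOMac* mice. For both genes the groups overlapped. *Hspa1b* is on the list of immediate early and heat shock genes, whose sum was 553 CPM in WT mouse 1 and highest in WT mouse 2 (939 CPM).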
